A study of Canis lupus familiaris with 26 samples.

Results

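CLEC3B, SCARA5 and C1QTNF4 are 3 genes that were read sample by sample in stroma of canine simple mammary adenoma, out of 18466 genes in the count table. They were chosen by name, with their lower level in the tumour stroma already known, and their identifiers (ENSCAFG00000014049, ENSCAFG00000008354 and ENSCAFG00000030796) were looked up by symbol. All 3 passed the filter on low counts and were among 4544 tested genes. CLEC3B encodes tetranectin, a secreted C-type lectin that binds the kringle domains of plasminogen and is deposited in extracellular matrix. SCARA5 encodes a class A scavenger receptor at the cell surface that takes up ferritin. C1QTNF4 encodes a secreted member of the C1q and TNF related proteins, which share a globular C1q domain with adiponectin.

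Fibroblasts of resting connective tissue, many of them around vessels, are known to make proteins that hold the matrix together and handle proteases, and CLEC3B and SCARA5 are used as markers of such cells in several tissues. In tumour stroma, fibroblasts can take on an activated state with contractile proteins and newly made matrix. Bulk RNA of a dissected area holds every cell type in it, so that fewer cells of a type and less RNA per cell cannot be told apart, and the cell of origin of the 3 transcripts was not measured.

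The samples were 26 libraries from 13 female dogs with a spontaneous benign tumour of the mammary epithelium, removed by surgery, fixed in formalin and embedded in paraffin. Each dog gave a pair, 1 area of adenoma-associated stroma (AAS, which the labels call cancer-associated) and 1 area of normal stroma, both cut from the same slides by laser-capture microdissection. The normal stroma lay beside unaltered glands at some distance from the tumour, so that it came from an animal with a tumour and not from a healthy dog. The labels name no treatment and no genetic change. The dogs were 6 to 13 years old, and the tissue had been stored for 4 to 29 months. Pair 14 is given apart, as the study left it out for its depth, which leaves 12 pairs.

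Total counts ran from 759119 to 1602797 in normal stroma and from 419770 to 1614120 in AAS. The share of the 4544 tested genes at 0 counts had a median of 1.29% in normal stroma (0.110% to 14.7%) and 0.682% in AAS (0.132% to 26.4%). It was above 5% in the normal stroma of pairs 4, 6 and 15 and in the AAS of pairs 7, 10, 12 and 15, and in the AAS of pair 7 a single gene took 84.9% of all counts. The remaining 6 pairs (3, 5, 8, 9, 11 and 13) held few such zeros in both libraries, and values are given for them alone where they differ. In the normal stroma of pairs 4 and 7 a single gene took 45.3% and 42.3% of all counts. A count of 3, taken as the floor of detection, was worth 1.53 to 6.37 normalized CPM (counts scaled to a common library size by TMM) in the normal stroma libraries and 1.53 to 28.0 in those of AAS. Floors and the 95% intervals of ratios below cover counting error only. A fold given at the floor puts 3 counts in place of 0 and leaves out the counting error of the normal stroma.

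CLEC3B was lower in the AAS of 12 of 12 pairs, which held for 0.99% of all tested genes. The groups of CLEC3B values did not overlap on the normalized scale. In normal stroma its level ran from 31.6 normalized CPM in pair 7 over a median of 81.9 to 164 in pair 3, with a mean of 94.9 ± 46.2 (SD, n = 12). In AAS it ran from 0 over a median of 3.74 to 27.0 in pair 4, with a mean of 7.28 ± 9.45 (SD, n = 12). On this scale the highest AAS sample stayed below the lowest normal stroma sample, by a narrow margin. The latter, of pair 7, had 19 counts in a total of 949956, of which a single gene took 42.3%. The AAS of pairs 4, 6 and 9 had 30 counts in 1468988, 24 in 1113319 and 38 in 1614120. By total counts alone all 3 lay above that sample, so that the groups overlapped on that scale. The fitted log2 fold change was -3.52 (SE 0.53), which is 11.5-fold.

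Apart from pairs 7 and 10, the AAS samples fell on both sides of a gap in CLEC3B. Those of pairs 7 and 10 had 0 counts at floors of 28.0 and 10.5 normalized CPM, and so could not be placed below the gap. Pairs 4, 6 and 9 held 27.0, 20.4 and 19.4 normalized CPM in AAS, from 24 to 38 counts, and no other AAS sample was above 6.61. In pair 4 the AAS level was 39.7% of that in normal stroma (23.3% to 67.4%, from 30 and 32 counts), the smallest difference of the 12. In pair 9 it was 27.8% (18.3% to 41.4%) and in pair 6 it was 17.3% (10.6% to 27.1%). At the other end, pair 3 had 143 counts in normal stroma and 0 in AAS, which made CLEC3B 68.1-fold lower at the floor of that library. The interval of the ratio reached up to 1.83%. The AAS of pairs 7, 10 and 15 also had 0 counts, and there depth set what could be seen. In pair 7, 19 counts in normal stroma stood against 0 in the AAS library with the dominant gene, where 3 counts were worth 28.0 normalized CPM. The fold at the floor was then 1.13, and the interval of the ratio reached above equality (0% to 120%), so that a difference was not detectable in this pair alone. In pairs 10 and 15 CLEC3B was 4.28-fold and 8.94-fold lower at the floor, with intervals of the ratio up to 30.1% and 14.3%.

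C1QTNF4 was also lower in the AAS of 12 of 12 pairs, without overlap of the groups. Its level in normal stroma ran from 36.3 normalized CPM in pair 6 over a median of 143 to 253 in pair 4, with a mean of 140.2 ± 57.5 (SD, n = 12). In AAS it ran from 0 over a median of 6.37 to 20.4 in pair 9, with a mean of 7.85 ± 7.78 (SD, n = 12). Summed over the 12 samples, 1790 counts in normal stroma stood against 125 in AAS. The fitted log2 fold change was -3.96 (SE 0.46), or 15.6-fold.

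Pair 6 stood apart for C1QTNF4, with the lowest level of all normal stroma samples and an AAS level of 16.1 normalized CPM, the next below those of pairs 9 and 8. Its AAS level was 44.5% of the normal stroma level (23.8% to 81.3%, from 19 and 31 counts). In pair 9, with the highest AAS level, the ratio was 15.2% (10.4% to 21.7%). Pair 11 had 322 counts in normal stroma against 2 in AAS, under the floor of 3, with an interval of the ratio from 0.125% to 3.78%. The AAS of pairs 7, 10, 12 and 15 had 0 counts, and each of these libraries held over 5% of tested genes at 0. C1QTNF4 was there 5.23-fold, 13.3-fold, 19.6-fold and 18.2-fold lower at the floor, in that order. The intervals of the ratio reached up to 24.0%, 9.41%, 6.43% and 6.86%, so that even the shallow libraries showed a difference beyond counting error.

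SCARA5 followed the other genes in most pairs but not in all. Its AAS level was the lower one in 9 of 12 pairs, and the groups overlapped. In normal stroma it ran from 0 normalized CPM in pair 4 over a median of 38.8 to 93.1 in pair 8, with a mean of 42.4 ± 26.8 (SD, n = 12). In AAS it ran from 0 over a median of 3.83 to 37.0 in pair 8, with a mean of 10.8 ± 13.5 (SD, n = 12). Of the AAS samples, 9 lay above the lowest normal stroma sample, and 6 normal stroma samples lay below the highest AAS sample. The fitted log2 fold change was -2.04 (SE 0.67), or 4.12-fold. Whether it differed from that of the other genes was not tested.

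**Figure D1:**
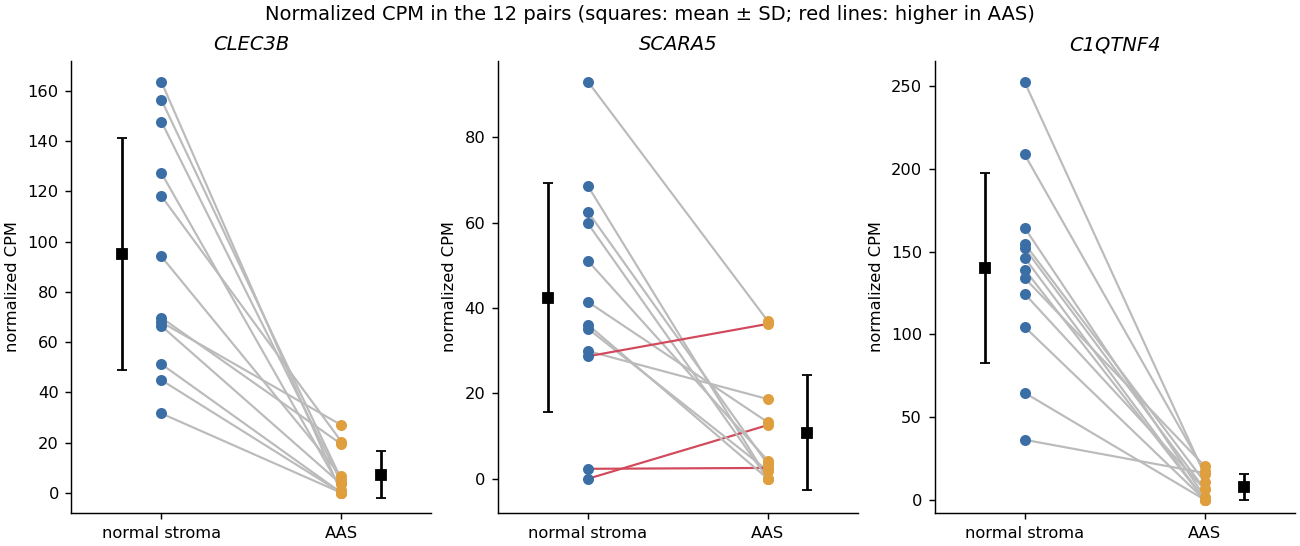
Normalized CPM (y axis, linear, own scale per panel) of CLEC3B, SCARA5 and C1QTNF4 in normal stroma and AAS, with a line for each of 12 pairs and squares with bars for the mean ± SD of each group. All lines fall for CLEC3B and C1QTNF4, whereas 3 red lines of SCARA5 (pairs 4, 6 and 15) do not, and the highest AAS value of SCARA5 is 37.0.

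The 3 pairs in which SCARA5 was not lower rested on few counts or on uneven libraries. In pair 4, SCARA5 had 0 counts in normal stroma, where 3 counts were worth 6.37 normalized CPM, and 14 counts (12.6 normalized CPM) in AAS. In pair 6 it had 2 and 3 counts, with an interval of the ratio from 12.5% to 1304%. In pair 15 it had 28 counts in normal stroma and 19 in AAS, a ratio of 126% (66.7% to 235%). Pairs 6 and 15 therefore showed no difference beyond counting error in either direction, while in pair 4 the interval of the ratio began at 140%. The normal stroma libraries of these pairs held 11.2%, 9.88% and 14.7% of tested genes at 0, the highest shares in that group, and the AAS library of pair 15 held 26.4%. Matched by the ages of dog and sample, pairs 4 and 6 are the cases with the lowest RNA quality that the study lists for normal stroma. The part of these zeros and of RNA quality in the result was not tested.

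Where both libraries held few zeros, SCARA5 was lower in the AAS of 6 of 6 pairs. Its level there ran from 35.2 to 93.1 in normal stroma against 0 to 37.0 normalized CPM in AAS, so that the groups still met at 1 sample. This was the AAS of pair 8, with 39.7% of its own normal stroma (25.3% to 60.4%, from 28 and 119 counts), and no other of the 6 pairs had a higher ratio. The fitted log2 fold change in these 6 pairs was -2.66 (SE 0.69) for SCARA5, -4.36 (SE 0.61) for CLEC3B and -3.90 (SE 0.41) for C1QTNF4. CLEC3B then ran from 66.4 to 164 normalized CPM in normal stroma and from 0 to 19.4 in AAS, and C1QTNF4 from 125 to 209 and from 1.71 to 20.4. The distance between groups of CLEC3B was thus wider without the 6 pairs that held many zeros.

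**Figure D2:**
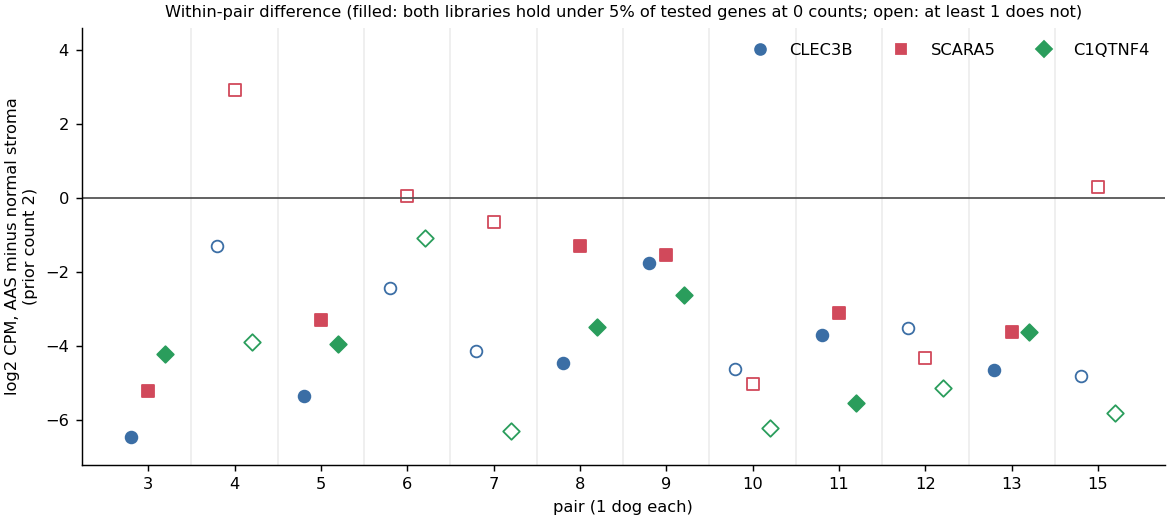
Difference in log2 CPM (prior count 2) between AAS and normal stroma of the same dog (y axis) by pair (x axis), for CLEC3B (circles), SCARA5 (squares) and C1QTNF4 (diamonds). Filled symbols mark the 6 pairs with under 5% of tested genes at 0 in both libraries, all of which lie below 0, and the points above 0 are SCARA5 in pairs 4, 6 and 15, up to 2.93.

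Within pairs, the difference in log2 CPM had a median of -4.30 for CLEC3B (SD 1.5, from -6.44 to -1.27), -2.31 for SCARA5 (SD 2.46, from -5.21 to 2.93) and -4.08 for C1QTNF4 (SD 1.56, from -6.28 to -1.08). The smallest differences were in pair 4 for CLEC3B and pair 6 for C1QTNF4. The largest were in pairs with 0 counts in AAS, where the value depends on the prior count, so that they are not ranked. The AAS of pair 10 was the only one with 0 counts for all 3 genes. Of the 3 genes, 2 (CLEC3B and C1QTNF4) passed an adjusted p of 0.05 and a log2 fold change beyond 1, against 1.8% of all 4544 tested genes, 1.19% of them lower in AAS. The same 2 genes had no overlap between groups on the normalized scale, against 0.176% of tested genes. As the genes were chosen for this contrast, nothing is read from these counts.

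Pair 14, with 83727 counts in normal stroma and 824086 in AAS, gave 5 and 17 counts of CLEC3B, 3 and 14 of SCARA5 and 14 and 8 of C1QTNF4. On the normalized scale this was 36.9 against 17.0 CPM for CLEC3B, 22.2 against 14.0 for SCARA5 and 103 against 8.01 for C1QTNF4. C1QTNF4 differed beyond counting error, with intervals by total count of 91.4 to 281 CPM and 4.19 to 19.1 CPM. The intervals of CLEC3B (19.4 to 139 and 12.0 to 33.0) and SCARA5 (7.39 to 105 and 9.29 to 28.5) overlapped.

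Markers of fibroblasts were measured beside the 3 genes, since their level moved in the same direction. Of 10 fibroblast markers, 8 had an identifier and were tested, and all 8 had a negative log2 fold change. Of these, 2 were called lower in AAS, beside 1.19% of all tested genes and 2.42% of those with a symbol. The 2 called were DCN, the collagen-binding proteoglycan decorin (-1.96, SE 0.45, adjusted p = 0.00996), and FBLN1, the matrix glycoprotein fibulin 1 (-1.71, SE 0.37, adjusted p = 0.00508). With the pair as a block 3 were lower, beside 1.89% of all tested genes, with COL1A2, a chain of collagen I, added (-1.44, adjusted p = 0.00204). The surface markers PDGFRA (-0.44, SE 0.31, 8 of 12 pairs lower) and THY1 (-0.39, SE 0.24, 7 of 12), named after their values were seen, were not called. The summed level of the 8 ran from 1614 to 21368 normalized CPM in normal stroma (median 5137) and from 588 to 7088 in AAS (median 2480). COL1A1, another chain of collagen I, had the highest mean, at 3781 in normal stroma and 1579 in AAS, so that collagen transcripts weighed most in this sum. Per 1000 normalized CPM of this sum, the median of CLEC3B was 15.7 in normal stroma against 0.616 in AAS, and 11 of 12 pairs had the lower value in AAS. The medians of C1QTNF4 were 28.5 and 1.94, with 10 of 12 pairs lower. Those of SCARA5 were 7.75 and 0.785, with 7 of 12 pairs lower, but its means were 9.92 ± 9.33 and 8.73 ± 15.3 (SD, n = 12) and its highest value was in AAS (47.5, against 34.6 in normal stroma). Thus fewer pairs showed a lower level on this scale for each of the genes.

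Other cell types had few markers with an identifier. Of 10 epithelial markers 3 were measured, with a summed level of 90.3 to 238 (median 154) in normal stroma and 95.5 to 292 (median 216) in AAS, in normalized CPM. Of 12 leukocyte markers 3 were measured, with 374 to 787 (median 541) and 355 to 1195 (median 578). The 2 of 10 endothelial markers summed to a median of 47.7 and 44.3 (9.22 to 89.2 and 0 to 63.4), ACTG2, the 1 of 8 for smooth muscle and pericytes, to 20.2 and 30.6 (0 to 55.5 and 0 to 190). LEP, the 1 of 8 adipocyte markers, had a median of 0 in both groups (up to 4.25 and 6.76). The 2 of 4 Schwann cell markers summed to a median of 10.4 in normal stroma (0 to 53.8) and 18.5 in AAS (0 to 60.7), where CDH19 had a median of 0. KRT19, TEK, LEP and CDH19 did not pass the filter, and none of the tested genes of these lists was called, while the part of any cell type in the levels of CLEC3B, SCARA5 and C1QTNF4 was not tested.

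The 3 genes were chosen with their fall in AAS known, a choice that can favour genes with little spread within groups. Their spread within normal stroma is therefore a description. The spread between dogs beyond counting error, as biological coefficient of variation, was 48.9% for CLEC3B, 44% for C1QTNF4 and 76.6% for SCARA5, against a median of 64.9% over the 4544 tested genes. CLEC3B and C1QTNF4 were thus steadier between dogs than the median gene (3266th and 3515th from the highest), and SCARA5 was less steady (1492nd). The tested genes were not matched to them for level. SCARA5 had 2 low samples, those of pairs 4 and 6 with 0 and 2 counts, and the other 10 lay between 28.7 and 93.1 normalized CPM. CLEC3B had no such tail. It exceeded 118 normalized CPM in pairs 3, 5, 6, 8 and 13, whereas pairs 7, 10 and 15 had the lowest levels, from 31.6 to 51.2.

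Whether the genes vary together from dog to dog was asked with permutation tests over log2 CPM (two-sided, 100000 resamples, n = 12), with adjustment over the 3 pairings of genes in a group. CLEC3B and SCARA5 are both hub genes of 1 co-expression module of the study, which was built with these samples, so that their covariation is not independent evidence. In normal stroma Pearson's r of CLEC3B and SCARA5 was 0.15 (permutation p = 0.640, adjusted p = 0.783) and Spearman's rho was 0.49 (p = 0.109, adjusted p = 0.326). Without pairs 4 and 6, which were farthest from the median of SCARA5, r was 0.60 (permutation p = 0.0665, adjusted p = 0.0998). For CLEC3B and C1QTNF4 r was -0.09 (permutation p = 0.783, adjusted p = 0.783) and rho was 0.11 (p = 0.732, adjusted p = 0.732), and r was -0.11 without pairs 3 and 7. No covariation of the 3 genes passed the threshold in normal stroma.

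SCARA5 and C1QTNF4 gave the least stable value. Over the 12 normal stroma samples r was 0.22 (permutation p = 0.474, adjusted p = 0.783) and rho was 0.38 (p = 0.217, adjusted p = 0.326). Without pairs 4 and 6 r was 0.65 (permutation p = 0.0324, adjusted p = 0.0973). Pair 4 had the lowest SCARA5 and, on the normalized scale, the highest C1QTNF4. Its 119 counts of C1QTNF4 came from a total of 1106065, against 267 in 1111463 in pair 8. By total counts alone pair 8 was thus higher, as were pairs 3, 5, 9, 10, 11, 13 and 15, and only pairs 6, 7 and 12 were lower than pair 4. Pair 6 had the lowest C1QTNF4 and low SCARA5, and on the normalized scale pairs 4 and 6 pulled r in opposite directions. It was 0.89 without pair 4 (permutation test, adjusted p = 0.0030) and -0.32 without pair 6 (adjusted p = 0.611). In the 6 pairs with few zeros r was 0.90 (exact permutation test, n = 6, adjusted p = 0.05), and scaled by total counts alone it was 0.69 over 12 samples (permutation test, adjusted p = 0.0497). The value over 12 samples thus depends on pairs 4 and 6 and was higher without them. Both are libraries with many tested genes at 0, and their normal stroma had the lowest listed RNA quality.

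**Figure D3:**
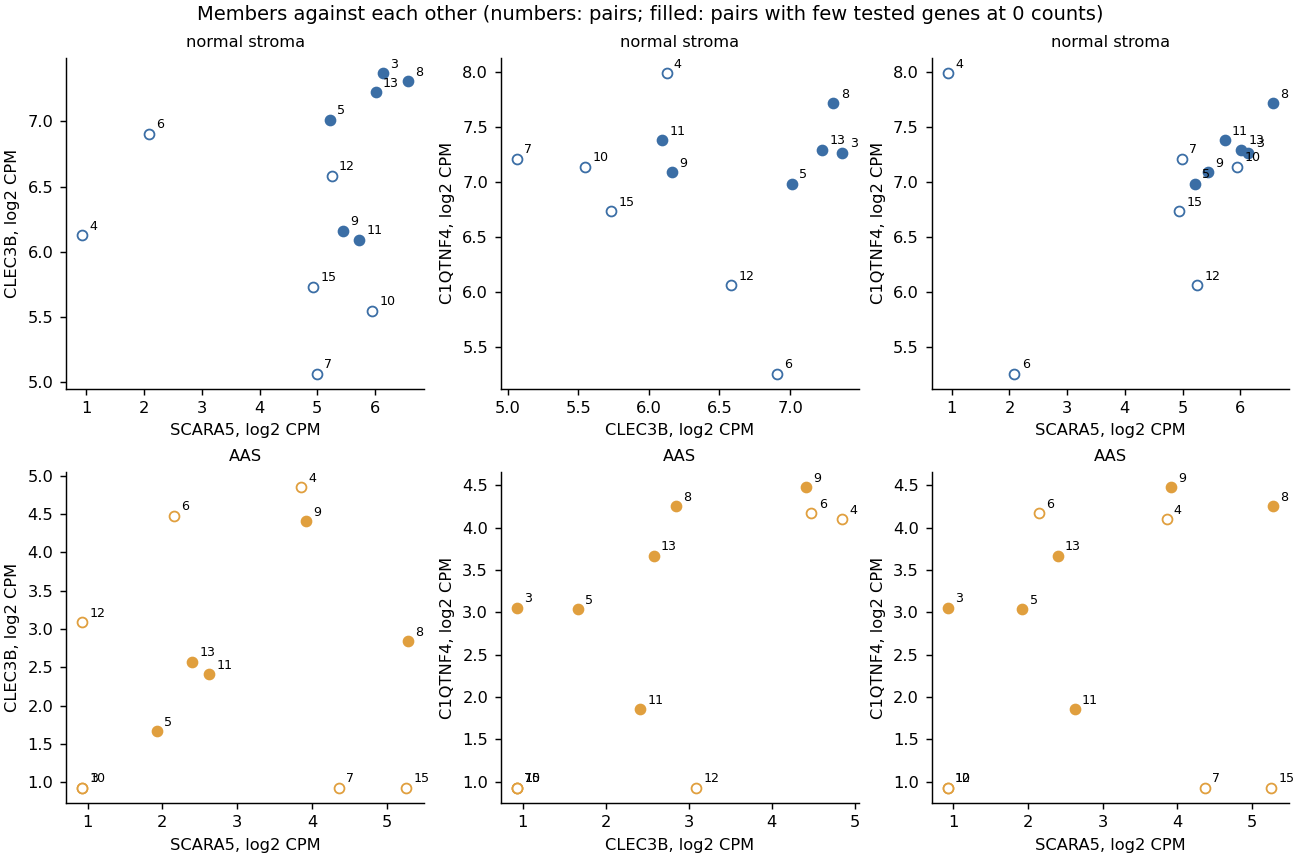
Log2 CPM (prior count 2, both axes) of each gene against the others in normal stroma (top row) and AAS (bottom row), with pair numbers beside the points and filled points for the 6 pairs with few tested genes at 0. In normal stroma the samples of pairs 4 and 6 stand apart at low SCARA5, and in AAS several samples lie at the lower edge, where the count is 0.

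In AAS, CLEC3B and C1QTNF4 had an r of 0.69 (permutation p = 0.0164, adjusted p = 0.0491) and a rho of 0.68 (p = 0.0193, adjusted p = 0.0579) over the 12 samples. The values were of like size on either side of the threshold, and r alone passed it. CLEC3B and C1QTNF4 had few counts in AAS. Both were at 0 counts in pairs 7, 10 and 15, and pairs 4, 6 and 9 held 19.4 to 27.0 normalized CPM of CLEC3B and 15.3 to 20.4 of C1QTNF4. Pairs 8 and 12 departed from this, as pair 8 held 17.2 normalized CPM of C1QTNF4 with 5.28 of CLEC3B, and pair 12 held 0 counts of C1QTNF4 with 6 of CLEC3B. Without pairs 4 and 6, the farthest from the median of CLEC3B, r was 0.59 (permutation p = 0.0719, adjusted p = 0.216), and in the 6 pairs with few zeros it was 0.59 (exact permutation test, n = 6, adjusted p = 0.213). Leaving out any single pair left r between 0.64 and 0.81 and the adjusted p above 0.05 for 10 of the 12. In the same samples r with the total count was 0.59 for CLEC3B (permutation p = 0.0449, adjusted p = 0.135 over 6 relations) and 0.65 for C1QTNF4 (p = 0.0272, adjusted p = 0.135), with rho 0.55 (p = 0.0672, adjusted p = 0.134) and 0.62 (p = 0.0369, adjusted p = 0.112). Without the 2 samples farthest from the median total, r with the total count was 0.40 and 0.45. The part of depth in the covariation of both genes was not tested.

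For SCARA5 in AAS no correlation with the other genes passed the threshold, and whether the correlations differed from each other was not tested. Its r was 0.13 with CLEC3B (permutation p = 0.686, adjusted p = 0.686, rho 0.10, p = 0.745, adjusted p = 0.745) and 0.18 with C1QTNF4 (permutation p = 0.569, adjusted p = 0.686, rho 0.28, p = 0.379, adjusted p = 0.569). Without pairs 8 and 15, the farthest from the median of SCARA5, these values were 0.38 and 0.31. In the 6 pairs with few zeros they were 0.73 and 0.60 (exact permutation test, n = 6, adjusted p = 0.213 for both), next to 0.59 for CLEC3B and C1QTNF4. The highest SCARA5 levels in AAS were in pairs 8 and 15, with 37.0 and 36.3 normalized CPM, and in pair 15 CLEC3B and C1QTNF4 both had 0 counts. The correlation of SCARA5 with the total count in AAS was -0.20 (permutation p = 0.527, adjusted p = 0.527, rho -0.10, p = 0.763, adjusted p = 0.763), and -0.32 without the 2 farthest samples. In normal stroma r with the total count was 0.26 for CLEC3B (permutation p = 0.424, adjusted p = 0.521), 0.26 for SCARA5 (p = 0.434, adjusted p = 0.521) and 0.51 for C1QTNF4 (p = 0.0870, adjusted p = 0.174). Spearman's rho was 0.29 (p = 0.365, adjusted p = 0.438), 0.37 (p = 0.237, adjusted p = 0.355) and 0.62 (p = 0.0373, adjusted p = 0.112), and r without the 2 farthest samples was 0.24, 0.08 and 0.64.

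A dog with a high level in normal stroma did not detectably have a high level in AAS. Over 12 pairs r was 0.23 for CLEC3B (permutation p = 0.457, adjusted p = 0.741 over the 3 genes), -0.11 for SCARA5 (p = 0.741, adjusted p = 0.741) and 0.14 for C1QTNF4 (p = 0.679, adjusted p = 0.741). Spearman's rho was 0.26 (p = 0.415, adjusted p = 0.622), -0.15 (p = 0.650, adjusted p = 0.650) and 0.28 (p = 0.379, adjusted p = 0.622). Without the 2 farthest samples r was 0.26, -0.14 and 0.53.

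The age of the dog and the age of the sample were compared with the levels in normal stroma, which makes 6 relations. CLEC3B was lower in older dogs by r, at -0.58 (permutation p = 0.0507, adjusted p = 0.247), and by rho, at -0.60 (p = 0.0418, adjusted p = 0.251), and neither passed the adjustment. Without pairs 4 and 7, the youngest and the oldest dog, r was -0.61. Single dogs moved the value in both directions, to -0.76 without pair 4 (permutation test, adjusted p = 0.0400) and to -0.36 without pair 7, the oldest dog with the lowest CLEC3B (adjusted p = 0.567). For the age of the sample r of CLEC3B was -0.21 (permutation p = 0.50, adjusted p = 0.750, rho -0.14, p = 0.666, adjusted p = 0.922), and 0.06 without pairs 5 and 7.

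SCARA5 had an r of -0.46 with the age of the sample (permutation p = 0.123, adjusted p = 0.247, rho -0.38, p = 0.228, adjusted p = 0.685) and of 0.48 with the age of the dog (permutation p = 0.113, adjusted p = 0.247, rho 0.19, p = 0.545, adjusted p = 0.922). Leaving out the 2 samples farthest in age moved r to -0.73 (permutation p = 0.0206, adjusted p = 0.124) and 0.28. Spearman's rho was then -0.27 (permutation p = 0.448, adjusted p = 0.932) and 0.10 (p = 0.780, adjusted p = 0.947). The 2 normal stroma samples with the lowest SCARA5, pairs 4 and 6, had been stored for 20 and 22 months, whereas those stored longest, pairs 5 and 7 at 24 and 29 months, held 35.2 and 29.9 normalized CPM. For C1QTNF4 r was -0.09 with the age of the sample (permutation p = 0.783, adjusted p = 0.940, rho -0.03, p = 0.922, adjusted p = 0.922) and 0.02 with that of the dog (permutation p = 0.948, adjusted p = 0.948, rho -0.04, p = 0.897, adjusted p = 0.922). Without the 2 farthest samples it was -0.21 and 0.30. With the age of the sample it was -0.55 when scaled by total counts alone (permutation test, adjusted p = 0.176) and -0.66 in the 6 pairs with few zeros (exact permutation test, n = 6, adjusted p = 0.469). No relation with either age passed the adjustment over 12 samples.

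**Figure D4:**
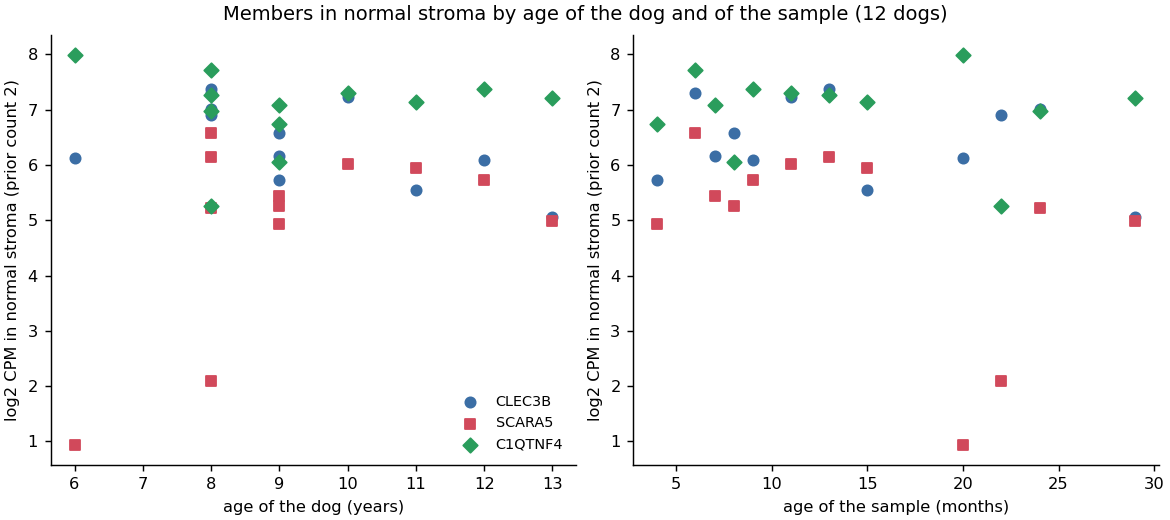
Log2 CPM (prior count 2, y axis) of CLEC3B (circles), SCARA5 (squares) and C1QTNF4 (diamonds) in 12 normal stroma samples by age of the dog in years (left) and age of the sample in months (right). The oldest dog, at 13 years, has the lowest CLEC3B, and the 2 low SCARA5 values are those of samples stored for 20 and 22 months.

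The genes whose pattern over the 12 normal stroma samples was most like that of each of the 3 were looked up among the other 4543 tested genes, as a description by Pearson's r and naming only genes with a symbol. For CLEC3B they were SERPINF1, a secreted serpin (r = 0.86), PRELP, a small leucine-rich proteoglycan (0.84), AEBP1, a secreted collagen-binding protein (0.84), SCUBE3, a secreted protein with EGF-like domains (0.84), and RING1, a Polycomb ubiquitin ligase (0.83). Of these, SERPINF1 (log2 fold change -2.12) and AEBP1 (-1.67) were also called lower in AAS. SCARA5 ranked 1689th and C1QTNF4 2942nd in likeness to CLEC3B. For C1QTNF4 they were SELENOO, a mitochondrial selenoprotein (0.88), PRR7, a proline-rich adaptor (0.88), SUN2, of the nuclear envelope (0.88), TBK1, a kinase of innate immune signalling (0.85), and PRAM1, an adaptor of myeloid cells (0.85). SCARA5 ranked 1466th and CLEC3B 2783rd there, so that none of the 3 genes was among the closest to another. RING1, SELENOO and PRAM1 had 0 counts in at least 1 normal stroma sample. The closest genes of CLEC3B and C1QTNF4 were not looked up again with samples left out.

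For SCARA5 the closest genes changed without its 2 low samples. The 5 genes were FLNC, an actin crosslinker (0.93), DLA-DRA, a chain of MHC class II (0.92), TRPS1, a transcriptional repressor (0.92), ZNF135, a zinc finger protein (0.92), and TCF12, a helix-loop-helix factor (0.90), and each had 0 counts in at least 1 normal stroma sample. Without pairs 4 and 6 none of them stayed among the first 5, and FLNC moved to rank 879 (r = 0.47), TCF12 to 613 (0.54) and TRPS1 to 499 (0.58), while DLA-DRA was at rank 19 (0.84) and ZNF135 at 62 (0.77). The first 5 were then RPF2 (0.91), IL16 (0.91), KHDRBS1 (0.89), SMARCC2 (0.85) and MAP2K2 (0.85), over 10 samples. C1QTNF4 moved from rank 1812 to 306 and CLEC3B from 2107 to 441.

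Other genes of the same roles were read from lists, of which only genes paired with a symbol could be found. Symbols were known more often for genes that changed, as 3.77% of 1856 tested genes with a symbol were called, 2.42% of them lower in AAS, with a median log2 fold change of -0.05. Of 22 genes of adventitial and resting fibroblasts, 13 had an identifier and 11 were tested. Of these, 3 were lower in AAS, none was higher, and 9 of 11 had a negative log2 fold change, with a median of -1.04. TNXB, the matrix glycoprotein tenascin X, fell from 599 ± 261 to 94.9 ± 93.7 normalized CPM (SD, n = 12; log2 fold change -2.64, SE 0.43, adjusted p = 0.000174). PI16, a secreted peptidase inhibitor that marks adventitial fibroblasts, fell from 160 ± 110 to 29.4 ± 26 (-2.36, SE 0.46, adjusted p = 0.00152). ABI3BP, a matrix protein that binds collagen, fell from 47.9 ± 32.3 to 10.1 ± 8.59 (-2.12, SE 0.54, adjusted p = 0.0251).

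With the pair as a block in the edgeR fit, 5 of the 11 were lower, beside 1.89% of all tested genes, with CD55, an inhibitor of complement (-2.26, adjusted p = 0.0443), and CD248, the stromal surface protein endosialin (-1.33, adjusted p = 0.0235), added. MFAP5, a microfibril protein named after its values were seen, had a log2 fold change of 1.73 (SE 0.85, adjusted p = 0.475) although 9 of 12 pairs had the lower value in AAS, and the block turned the fold change to -1.12 (adjusted p = 0.750). TNXB overlaps CYP21A2 and CD55 overlaps a small nuclear RNA in the RefSeq annotation of another dog assembly, and SCARA5 overlaps a long non-coding RNA there, while CLEC3B and C1QTNF4 overlap no gene. As the strand setting of the counting is not given in the sources used here, reads of overlapping genes may not be told apart.

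Of 22 genes of activated fibroblasts, 9 had an identifier and 8 were tested. BGN, the proteoglycan biglycan, was higher in AAS, from 26 ± 26.6 to 203 ± 145 normalized CPM (SD, n = 12; log2 fold change 2.96, SE 0.49, adjusted p = 0.000223), in 12 of 12 pairs. Of all 4544 tested genes, 28 were called higher. None of the list was called lower, but 2 of the 8 had a negative log2 fold change, and the median of the 8 was 0.88. With the pair as a block, THBS2, the matricellular protein thrombospondin 2, was also called, lower in AAS (-2.21, adjusted p = 0.0136). Without the block it had a log2 fold change of -1.36 (SE 0.53), with 10 of 12 pairs lower. The list thus held members with fold changes in both directions in either fit, and called genes in both directions under the block.

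**Figure D5:**
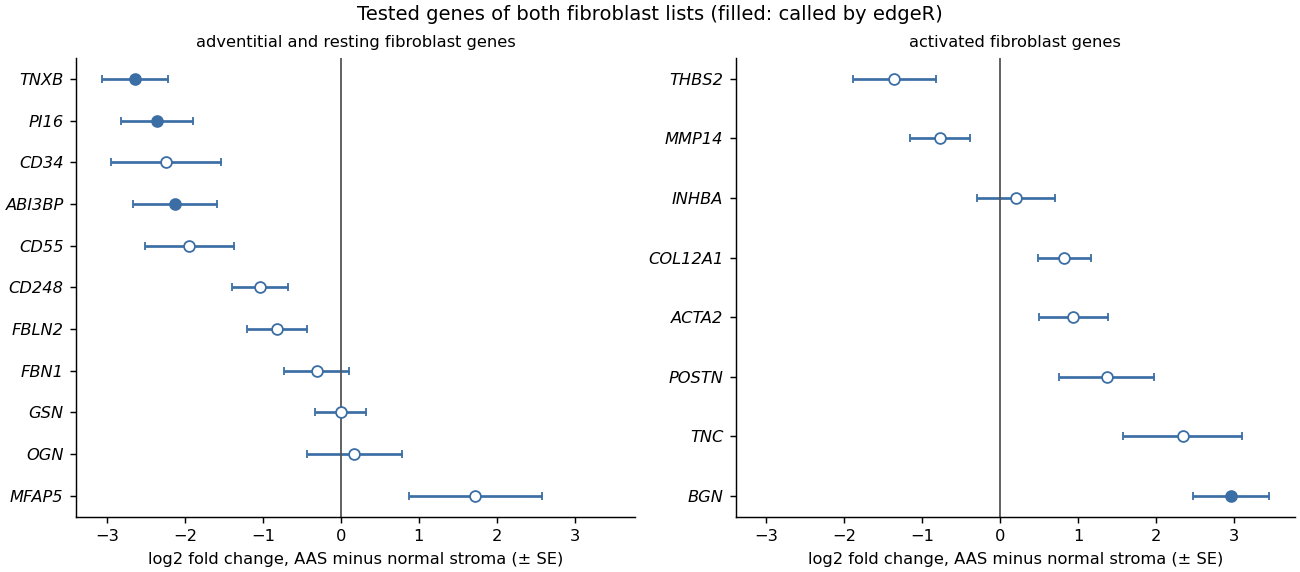
Log2 fold change (x axis, AAS minus normal stroma, bars ± SE) of the tested genes of the resting (left) and activated (right) fibroblast lists. Filled points are genes called by edgeR without the block, namely TNXB, PI16 and ABI3BP on the left, all below -2, and BGN on the right at 2.96.

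The molecular partners of CLEC3B, SCARA5 and C1QTNF4 were measured less well. Of 12 genes of the plasminogen system, in which tetranectin acts, 3 had an identifier, 2 were tested and none was called by edgeR or DESeq2, with 1 at an unadjusted p under 0.05. SERPINE2, an inhibitor of plasminogen activators, measured 71.3 ± 18.3 in normal stroma against 124 ± 55.6 normalized CPM in AAS (SD, n = 12; log2 fold change 0.79, SE 0.23, adjusted p = 0.0804). ANXA2, a surface receptor of plasminogen, had a log2 fold change of -0.98 (SE 0.53, adjusted p = 0.575). PLGRKT, another plasminogen receptor, was not tested, with a median of 0 normalized CPM in both groups.

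Of 4 class A scavenger receptors other than SCARA5, COLEC12 alone had an identifier, and at 13.2 ± 14.5 in normal stroma against 10.9 ± 19.3 normalized CPM in AAS (SD, n = 12) it did not pass the filter. Of 16 genes of iron and ferritin handling, 7 had an identifier, 3 were tested and none was called by edgeR or DESeq2, with 0 at an unadjusted p under 0.05. FTH1, the ferritin heavy chain, measured 332 ± 160 in normal stroma against 372 ± 102 normalized CPM in AAS (SD, n = 12; log2 fold change 0.17, SE 0.24, adjusted p = 0.919), although copies of this gene may share its reads. CP, the ferroxidase ceruloplasmin, which overlaps HPS3, had a log2 fold change of -0.30 (SE 0.19, adjusted p = 0.688), and STEAP4, a metalloreductase, of -0.71 (SE 0.61, adjusted p = 0.821). FTL, the ferritin light chain, had 9.25 ± 11.0 and 10.9 ± 15.8 normalized CPM and was not tested. None of the 18 other genes of the C1q and TNF related family had an identifier, so that C1QTNF4 was read without its relatives.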

How the data were processed

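RNA from 13 pairs of laser-captured AAS and normal stroma was sequenced by the study. The authors quantified Ensembl transcripts of the dog genome CanFam3.1 by kallisto (version 0.44.0, correcting for sequence bias), summed them by gene in tximport and deposited estimated counts that are not normalized. All stored values were whole numbers. Group, pair and both ages came from the labels of each sample, and a pair is 1 dog. Deviations from the group means correlated by 0.125 within pairs and by -0.00597 between different pairs, and 6 of 12 pairs were over 0.1. Without pair 14, estimated counts were filtered (filterByExpr), TMM-scaled and tested with edgeR 4.0.16 (quasi-likelihood, no block) in R 4.3.3. A gene was called at a Benjamini-Hochberg adjusted p below 0.05 and a log2 fold change beyond 1. SE is the absolute log2 fold change divided by the root of F. Log2 CPM carried a prior count of 2. The fits were tested on simulated data. Permutation tests (100000 resamples, or exact below 9 samples) used scipy 1.17.1 under Python 3.11.15, over 15 planned relations. Ratio intervals are 95% Clopper-Pearson intervals of counts, conditional on their sum.

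Symbols came from the readable parts of the supplementary tables of the study, which pair 3302 identifiers with a symbol, and the first of these is sorted by significance. RefSeq annotation (UU_Cfam_GSD_1.0) gave only neighbours and overlaps, so that no coordinates or sequences are given. The members and lists were chosen with earlier results of these data known, and 2 genes of the lists are not reported here. Named genes were the 3 genes, the 5 with a symbol most like each of them in normal stroma, and the called genes of each list or, where there were none, up to 4 with the most counts. Alternatives were the pair as a block, DESeq2 1.42.0 with and without it, RLE, total-count scaling, a prior count of 0.5, no filter, a mean of at least 5 counts, all 13 pairs, each pair left out, and correlations without the 2 farthest samples. The 6 pairs with few zeros, the correlations with total count, the scale per fibroblast marker level and the likeness to SCARA5 without pairs 4 and 6 were added after seeing the data.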

Additional observations from a re-analysis of the deposited data

How the results depend on the processing

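CLEC3B, SCARA5 and C1QTNF4 had a lower fitted level in AAS under every alternative, with log2 fold changes of -3.92 to -3.29, -2.47 to -1.83 and -4.19 to -3.83 when each pair was left out. With the pair as a block they were -4.25, -2.49 and -4.29. CLEC3B and C1QTNF4 were called each time, SCARA5 only without pair 15, without a filter, by DESeq2 with the block and, in the 6 pairs with few zeros, with the block. The 82 genes called between AAS and normal stroma became 115 with the pair as a block, 1690 without a filter, 153 with a mean of at least 5 counts, 134 by DESeq2, 227 by DESeq2 with the block and 71 to 99 when each pair was left out. The 3 resting fibroblast genes lower in AAS became 5 with the block, 6 without a filter, 5 by DESeq2 and 6 by DESeq2 with the block. Calls over all genes rose in these settings too. The list count was 5 in the 6 pairs with few zeros, where 1.19% of 5975 tested genes were called lower, and 2 to 4 when each pair was left out. The 1 activated fibroblast gene called became 2 with the block, 3 without a filter, 2 by DESeq2, 4 by DESeq2 with the block, 5 in the 6 pairs with few zeros with the block, and stayed 1 when each pair was left out. The cause of these shifts was not tested.

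Of the correlations, that of CLEC3B and C1QTNF4 in AAS was 0.68 by total counts (adjusted p = 0.0600 by permutation) and 0.67 with a prior count of 0.5 (adjusted p = 0.0676), 0.59 in the 6 pairs and 0.59 without the 2 farthest samples, and ran from 0.64 to 0.81 when each pair was left out. In normal stroma the same genes gave 0.19 by total counts, 0.28 in the 6 pairs and -0.23 to 0.0933 when each pair was left out. SCARA5 and C1QTNF4 gave 0.69 by total counts and -0.32 to 0.89 when each pair was left out. Between AAS and normal stroma of a dog, SCARA5 gave 0.0525 by total counts, 0.34 in the 6 pairs and -0.30 to 0.0524 when each pair was left out, CLEC3B -0.59 in the 6 pairs, and C1QTNF4 -0.0175 to 0.61 when each pair was left out. CLEC3B and age of the sample gave 0.0630 without the 2 farthest samples, 0.27 in the 6 pairs and -0.37 to 0.18 when each pair was left out, and CLEC3B and age of the dog -0.76 to -0.36. SCARA5 and age of the dog gave -0.15 in the 6 pairs. C1QTNF4 gave -0.55 by total counts, -0.66 in the 6 pairs and -0.22 to 0.23 when each pair was left out with age of the sample, and with age of the dog -0.0142 by RLE, -0.0130 with all 13 pairs and -0.20 to 0.31 when each pair was left out. Counts of at most 38 for CLEC3B, 28 for SCARA5 and 40 for C1QTNF4 limit what the AAS samples can show.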
